A study of Mus musculus with 64 samples.

Results

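Edn1 encodes endothelin-1, a secreted vasoconstrictor peptide, and its transcript was followed in mouse macrophages given lipopolysaccharide (LPS), together with Ednrb, the gene of the endothelin B receptor, and Ece1, the gene of an endothelin-converting enzyme. Edn1 was selected on its values with LPS in these same arrays, so its levels with LPS are described here without a test, while Ednrb and Ece1 were added for their roles in the endothelin system. Each gene was taken from the brightest probe set that carried its symbol alone, and each of the 3 genes had 1 such probe set, 10404783 for Edn1, 10422164 for Ednrb and 10509441 for Ece1. They are 3 of 18820 genes measured. The macrophages came from femoral marrow of male mice aged 7 to 8 weeks, of strain BALB/c or C57BL/6. They were seeded on day 6 at 200000 cells per well in medium with CSF1 at 10000 U/ml, the growth factor of the macrophage lineage, which all groups shared, and were treated on day 7. BALB/c cells received interferon-beta (IFN-beta) at 10 U/ml, interferon-gamma (IFN-gamma) at 10 U/ml or LPS at 5 ng/ml, and those of C57BL/6 mice LPS at 50, 5 or 0.5 ng/ml, each for 1, 2, 4, 8 or 24 h. The controls were untreated wells of each strain at 0 h, and no untreated wells at later times were among the groups, so changes of the culture with time are part of every difference from 0 h. Total RNA of 2 separate wells per group was hybridised to 1 Affymetrix array each, 64 arrays in 32 groups. Values are log2 of the intensity the authors deposited, and differences are log2 differences between group means of n = 2 arrays.

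Endothelin-1 is made as a long precursor that furin-like proteases cut to an inactive intermediate, and endothelin-converting enzymes then release the active peptide. The peptide acts through the endothelin A receptor, which raises calcium in smooth muscle, and the endothelin B receptor, which on endothelium promotes nitric oxide release and also clears the peptide. Endothelial cells are its best known source, and macrophages given LPS are known to make it as well. LPS is a component of the outer membrane of Gram-negative bacteria that macrophages sense through Tlr4.

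The stretch around the annotated Edn1 start site is shown because Edn1 moved more than the other members in these courses. It runs from 250 bases before to 30 bases from the start site onwards, on the plus strand of chr13:42301226-42301505 in GRCm38.p6 (RefSeq).
Edn1: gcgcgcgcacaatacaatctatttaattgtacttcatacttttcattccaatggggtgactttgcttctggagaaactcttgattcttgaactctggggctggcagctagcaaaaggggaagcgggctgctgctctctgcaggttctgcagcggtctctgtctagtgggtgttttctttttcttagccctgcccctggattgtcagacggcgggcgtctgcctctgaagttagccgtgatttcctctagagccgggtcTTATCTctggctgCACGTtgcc
Capitals mark the matches to the motifs searched, which lie after the start site as annotated in RefSeq. The letters TTATCT, which match the motif of GATA factors on the minus strand, cover bases 9 to 14 after the start. The letters CACGT, which match the hypoxia element on the minus strand, cover bases 22 to 26. Motifs were searched on both strands. The GATA factor motif was AGATAA, where the first letter could also be T and the last also G. The AP-1 motif was TGANTCA, the kB motif GGGA and CC with any 4 bases between them, the hypoxia element ACGTG and the TATA box TATAAA. The kB and AP-1 motifs can overlap others, and each was counted on its own. Among 32851 RefSeq windows of the same length, 28.7% held a GATA match, 7.5% an AP-1 match, 19.4% a kB match, 18.5% a hypoxia element and 13.1% a TATA match. The AP-1, kB and TATA letters were not in the Edn1 window, and bases beyond the window were not searched. The single Ednrb window held none of the 5 motifs, and of 4 Ece1 windows 1 held a kB match, GGGAAACGCC, and the hypoxia element. A match is a string of letters in a window, and nothing on binding was measured. Where transcription of these genes starts in macrophages was not measured either, so a position counts from the annotated start only.

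The macrophage markers Csf1r, Cd68, Adgre1, Itgam, Lyz2, Mertk, Fcgr1 and Cd14 averaged 11.3 to 11.9 on each array, and all 8 lay above 4.19, the 40th percentile of all log2 values. In bulk RNA, fewer cells of a type and less RNA per cell cannot be told apart. On probe sets without a gene the arrays fell into batches of 53 and 11, called the larger and the smaller batch here. The batches divided the replicates of 9 groups, and IFN-beta at 4 h lay wholly in the smaller one. In 5 groups the replicates differed by over 1.5 log2 in 10 or more genes after removal of that batch difference, namely C57BL/6 with LPS at 50 ng/ml at 1 h, at 5 ng/ml at 24 h and at 0.5 ng/ml at 1 h, and BALB/c with IFN-gamma at 2 and 4 h. The C57BL/6 arrays labelled 0 h held transcripts that LPS raises in macrophages. Nos2, the inducible nitric oxide synthase, stood at 10.63 and 10.45 there, against 4.41 and 4.56 after 1 h of LPS at 5 ng/ml and 3.54 and 3.78 in BALB/c at 0 h. For the members and for counts over gene lists, C57BL/6 differences from 0 h are therefore printed beside levels or differences from 1 h, which do not use those arrays. The 1 h cells had already been given LPS, so a difference from 1 h is not one from untreated cells. At 1 h, 1 array at 50 ng/ml and 1 at 0.5 ng/ml also held far more Nos2 than its replicate. This limits the 1 h baseline at these 2 doses. With 1 preparation per strain as far as the labels tell, strain and preparation cannot be told apart. Replicates are wells, and p-values measure the spread between wells.

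In BALB/c macrophages given LPS at 5 ng/ml, Edn1 climbed from near the 40th percentile of all values to its highest level of that course at 8 h and was lower again at 24 h. Its log2 intensity was 4.22 and 3.87 at 0 h, 6.24 and 6.09 at 1 h, 7.09 and 7.16 at 2 h, 9.82 and 9.78 at 4 h, 10.34 and 10.19 at 8 h, and 6.42 and 6.74 at 24 h. Both arrays of every time lay above both 0 h arrays, and arrays of neighbouring times did not overlap. Differences from 0 h were 2.12 at 1 h, 3.08 at 2 h, 5.75 at 4 h, 6.22 at 8 h and 2.53 at 24 h, each with an SE of 0.34. The 8 h level was 74.5-fold above 0 h on the linear scale. Between 8 and 24 h the mean fell by 3.69, a 12.9-fold difference. The largest rise between neighbouring times was the 2.67 between 2 and 4 h.

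**Figure D1:**
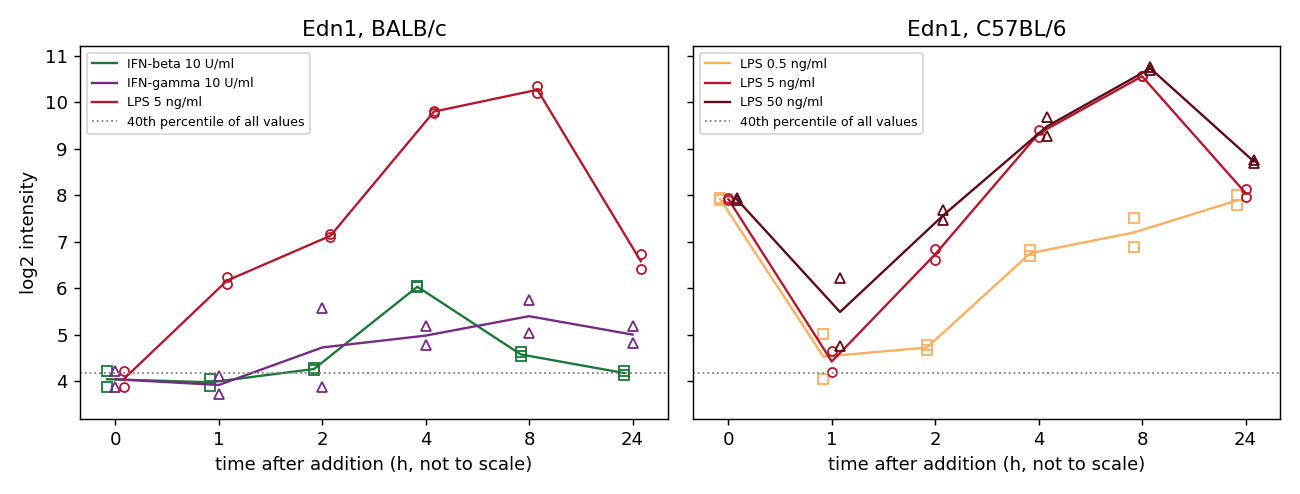
Edn1 log2 intensity (y axis) at 0, 1, 2, 4, 8 and 24 h (x axis) in each of the 6 courses. Points are single arrays and lines join group means of 2 arrays. The BALB/c course with LPS at 5 ng/ml peaks at 10.34 and 10.19 at 8 h, whereas the C57BL/6 courses begin from 0 h arrays at 7.94 and 7.90.

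In C57BL/6 macrophages Edn1 stood at 7.94 and 7.90 in the 0 h arrays, a level that the BALB/c course passed only between 2 and 4 h. With LPS at 0.5 ng/ml Edn1 was 5.01 and 4.05 at 1 h, 4.78 and 4.67 at 2 h, 6.81 and 6.70 at 4 h, 6.88 and 7.52 at 8 h, and 8.00 and 7.78 at 24 h. The highest arrays of this dose were those of 24 h. With LPS at 5 ng/ml it was 4.66 and 4.19 at 1 h, 6.62 and 6.84 at 2 h, 9.39 and 9.25 at 4 h, 10.55 and 10.56 at 8 h, and 8.14 and 7.96 at 24 h. With LPS at 50 ng/ml it was 6.22 and 4.77 at 1 h, 7.47 and 7.67 at 2 h, 9.27 and 9.69 at 4 h, 10.76 and 10.69 at 8 h, and 8.76 and 8.69 at 24 h. Both higher doses peaked at 8 h and fell back by 24 h, by 2.51 at 5 ng/ml and by 2.00 at 50 ng/ml.

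Set against the 0 h arrays, Edn1 was lower at 1 h, with differences of -3.39, -3.49 and -2.43 at 0.5, 5 and 50 ng/ml. At 8 h the differences from 0 h were -0.72, 2.64 and 2.81 in the same order of doses. Counted from 1 h, which leaves the 0 h arrays out, the 8 h level was 2.67 higher at 0.5 ng/ml, 6.13 higher at 5 ng/ml and 5.23 higher at 50 ng/ml. The 1 h baseline at 50 ng/ml rests on replicates far apart. There Edn1 was 6.22 and 4.77 while Nos2 was 10.17 and 5.34 in the same arrays. At 0.5 ng/ml and 1 h Edn1 was 5.01 and 4.05 while Nos2 was 8.12 and 3.98. In both groups the array with more Edn1 was also the array with far more Nos2. Of each pair the array said to stand apart was the one farther from its nearest other group. These were the first array at 50 ng/ml and the second at 0.5 ng/ml. Without them the 8 h level was 5.96 above 1 h at 50 ng/ml and 2.19 at 0.5 ng/ml. At 0.5 ng/ml the distances were close, 0.62 and 0.46, and the array kept was the one with Nos2 at 8.12.

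Edn1 in C57BL/6 cells differed by dose in its level and in the time of its highest level. The means ran 50 above 5 above 0.5 ng/ml at 4 of 5 times, and at 1 h the order was 50, 0.5, 5. At 1 h the arrays of 0.5 ng/ml overlapped with those of both other doses, while those of 50 and 5 ng/ml did not overlap. Arrays at 50 ng/ml lay wholly above those at 0.5 ng/ml at 4 of 5 times. The differences of 50 minus 0.5 ng/ml were 0.96 at 1 h, 2.85 at 2 h, 2.72 at 4 h, 3.52 at 8 h and 0.84 at 24 h, and the 8 h difference is 11.5-fold. Without the arrays that stood apart the 1 h difference was -0.25, with 1 array per group. The array kept at 0.5 ng/ml was the one with more Nos2, and that kept at 50 ng/ml the one with less. Arrays at 5 ng/ml lay wholly above those at 0.5 ng/ml at 3 of 5 times, 2, 4 and 8 h, with differences of 2.00, 2.57 and 3.36, the last 10.2-fold. At 1 and 24 h these 2 doses differed by -0.10 and 0.16, within the spread of the replicates. Between 50 and 5 ng/ml the differences were 1.06 at 1 h, 0.84 at 2 h, 0.16 at 4 h, 0.17 at 8 h and 0.68 at 24 h. Arrays of these doses did not overlap at 4 of 5 times, but the 4 and 8 h differences were under the SE of 0.34. In the larger batch alone the 4 h difference was -0.06. The gap between doses thus lay between 0.5 and 5 ng/ml at 4 and 8 h, and at 24 h the spread of the 3 doses had narrowed to 0.84. Over all genes, 3.72% were called between 50 and 0.5 ng/ml, 2.16% between 5 and 0.5 ng/ml and 0.228% between 50 and 5 ng/ml, where called means an adjusted p under 0.05 over all genes and an absolute log2 difference of at least 1. Nothing is read from these shares for Edn1, which was chosen by these contrasts.

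**Figure D2:**
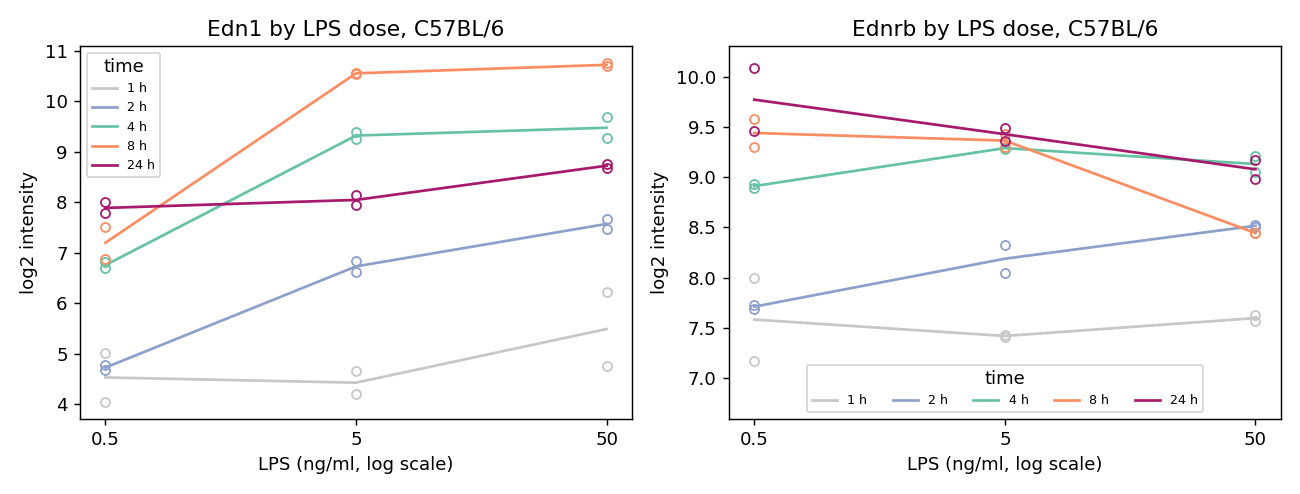
Log2 intensity (y axis) of Edn1 and of Ednrb against LPS dose in ng/ml (x axis, log scale) in C57BL/6 macrophages, with 1 line per time. Points are single arrays and lines join means of 2 arrays. Edn1 lies higher at 5 than at 0.5 ng/ml at 2, 4 and 8 h, whereas Ednrb at 8 and 24 h lies lower at 50 than at 0.5 ng/ml.

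The strains were compared at the dose they share, 5 ng/ml. BALB/c minus C57BL/6 differences in Edn1 were 1.74 at 1 h, 0.40 at 2 h, 0.47 at 4 h, -0.29 at 8 h and -1.47 at 24 h. BALB/c was thus higher at 1 h without overlap (6.24 and 6.09 against 4.66 and 4.19), within 0.47 of C57BL/6 from 2 to 8 h, though the arrays did not overlap there either, and lower at 24 h without overlap (6.42 and 6.74 against 8.14 and 7.96). The 24 h difference was 2.76-fold. It was -1.56 without the arrays that stood apart and -1.63 in the larger batch. At 0 h BALB/c lay at 4.22 and 3.87 against 7.94 and 7.90 in C57BL/6, a difference of -3.87 or 14.6-fold. Nos2 and Ptgs2, the inducible cyclooxygenase, differed the same way at 0 h, by -6.87 and -5.53. The part of the C57BL/6 0 h arrays' LPS-induced transcripts in the Edn1 difference was not tested. The mean of 6 granulocyte markers was 4.58 to 4.91 on BALB/c arrays with LPS at 5 ng/ml, against 4.84 to 5.84 on C57BL/6 arrays at that dose. At 0 h this mean was 4.86 and 4.98 in BALB/c, against 5.58 and 5.83 in C57BL/6. Over all arrays Mmp8 averaged 8.20 and Ngp 5.11. Elane, Mpo, Ltf and Camp averaged 4.68, 4.58, 4.41 and 4.08, and 5 of the 6 lay above 4.19. The part of these markers in the strain differences was not tested. The shares of all genes called were 5.53% between strains with LPS at 5 ng/ml, 4.68% for the strain response (the change from 0 h in BALB/c minus that in C57BL/6) and 2.36% at 0 h.

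**Figure D3:**
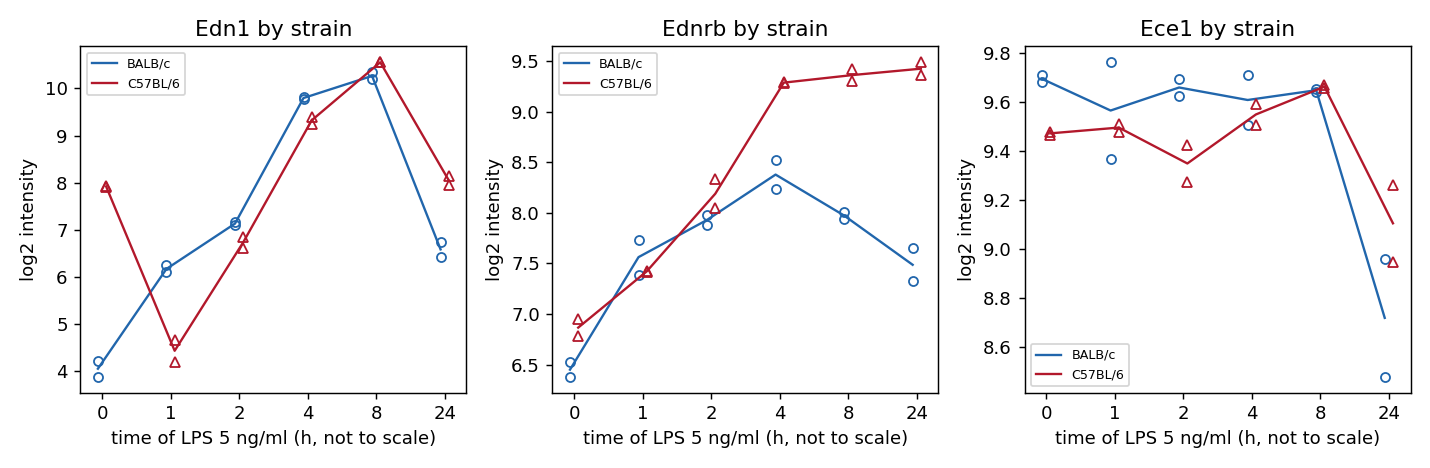
Log2 intensity (y axis) of Edn1, Ednrb and Ece1 by time in h (x axis) in BALB/c and C57BL/6 macrophages given LPS at 5 ng/ml. Points are single arrays and lines join means of 2 arrays. Edn1 differs between strains by -0.29 at 8 h and by -1.47 at 24 h (BALB/c minus C57BL/6), whereas Ednrb stays lower in BALB/c from 4 h onwards.

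Edn1 was chosen for its LPS values, and its interferon courses were tested. They share their BALB/c 0 h arrays with the LPS course and with each other. Earlier results of these data were also known at the choice, so these tests are not independent of it. IFN-beta gave a single pulse of Edn1 at 4 h. Edn1 was 4.22 and 3.87 at 0 h, 4.06 and 3.90 at 1 h, 4.28 and 4.25 at 2 h, 6.05 and 6.02 at 4 h, 4.62 and 4.54 at 8 h, and 4.14 and 4.22 at 24 h. The 4 h arrays lay above every other array of the course. The 4 h difference was 1.99 ± 0.34 (SE), or 3.97-fold, and Edn1 was called (limma F-test over 5 times, adjusted p = 1.7e-05), as were 7.92% of all genes. Both 4 h arrays belong to the smaller batch. With the batch as a covariate the difference was 2.25 (limma adjusted p = 1.6e-05), and in the larger batch, which holds no 4 h array, the largest difference was 0.53 at 8 h (limma adjusted p = 0.43).

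IFN-gamma gave a lower and longer rise. Edn1 was 3.72 and 4.13 at 1 h, 5.57 and 3.88 at 2 h, 4.78 and 5.19 at 4 h, 5.75 and 5.05 at 8 h, and 5.19 and 4.82 at 24 h. Arrays from 4 h onwards lay above both 0 h arrays, whereas the 2 h replicates fell on either side of the higher 0 h array. Without the arrays that stood apart the differences from 0 h were 1.53 at 2 h and 0.73 at 4 h, with 1 array each. The 8 h difference was 1.35 ± 0.34 (SE), or 2.56-fold, and Edn1 was called (limma adjusted p = 0.0022), as were 5.37% of all genes. A fit of only the arrays of this course gave the same difference with an adjusted p of 0.12 (limma), which ends the call.

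IFN-beta minus IFN-gamma was 0.06 at 1 h, -0.46 at 2 h, 1.05 ± 0.34 (SE) at 4 h, -0.82 at 8 h and -0.83 at 24 h. Edn1 was called between the interferons (limma adjusted p = 0.014), as were 3.96% of all genes, and the sign differed between 4 h and the later times. Without the arrays that stood apart the difference was -1.31 at 2 h and 1.26 at 4 h. The call was lost in a fit of only these arrays (limma adjusted p = 0.09). It was also lost without the first IFN-gamma array at 4 h, where the largest difference was 0.84 (limma adjusted p = 0.05). The LPS level of Edn1 at 8 h, 10.34 and 10.19, lay above every interferon array.

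Over the 32 groups Edn1 spanned 6.80 log2, or 112-fold, and its group mean passed 4.19 in 28 of them. The highest means were 10.73 (C57BL/6, LPS at 50 ng/ml, 8 h), 10.56 (C57BL/6, 5 ng/ml, 8 h), 10.27 (BALB/c, 5 ng/ml, 8 h) and 9.80 (BALB/c, 5 ng/ml, 4 h), and the arrays of these 4 groups did not overlap with their neighbours in the order, although the gaps of 0.17 and 0.29 between the first 3 means were under the SE of 0.34. The C57BL/6 0 h group was the ninth at 7.92, and its arrays overlapped with those of 0.5 ng/ml at 24 h at 7.89. The lowest mean was 3.92, with IFN-gamma at 1 h. Of 31 neighbouring pairs in the order, 18 overlapped, most of them below 5.5, where most interferon groups, BALB/c 0 h and the 1 h C57BL/6 groups lie. Edn1 is known as an endothelial product, and the mean of 10 endothelial markers was 4.86 to 5.40 on BALB/c LPS arrays, against 4.98 and 5.05 at 0 h. On C57BL/6 arrays it was 4.74 to 5.56 with LPS, against 4.96 and 5.01 at 0 h. Of these 10 markers 6 lay above 4.19. Vwf, the brightest of them, had group means of 9.04 to 9.81 with LPS in BALB/c, against 9.95 at 0 h. Kdr, a growth factor receptor, had 6.12 to 9.38, against 6.37 at 0 h, and Pecam1, an adhesion molecule, 3.99 to 5.80, against 4.23 at 0 h. Tek and Emcn averaged 3.48 and 3.14 over all arrays, and the part of these markers in the Edn1 levels was not tested.

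Ednrb rose with LPS at 5 ng/ml in BALB/c and at all 3 doses in C57BL/6, and its courses with the interferons differed. In BALB/c with LPS at 5 ng/ml Ednrb was 6.38 and 6.52 at 0 h, 7.74 and 7.39 at 1 h, 7.98 and 7.88 at 2 h, 8.23 and 8.52 at 4 h, 8.01 and 7.94 at 8 h, and 7.65 and 7.32 at 24 h. All arrays after 0 h lay above both 0 h arrays, with the highest at 4 h. The 4 h difference was 1.93 ± 0.18 (SE), or 3.81-fold (limma adjusted p = 1.5e-10). Of Ednrb and Ece1, Ednrb alone was called in this course, where 17.2% of all genes were. Most of the rise lay in the first hour. Counted from 1 h the largest difference was 0.82 (limma adjusted p = 3.4e-04), which is under the minimum for a call.

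In C57BL/6 the 0 h arrays had Ednrb at 6.78 and 6.95, below every LPS array of that strain. With LPS at 0.5 ng/ml Ednrb was 8.00 and 7.17 at 1 h, 7.73 and 7.69 at 2 h, 8.89 and 8.93 at 4 h, 9.30 and 9.58 at 8 h, and 10.08 and 9.46 at 24 h. Its means climbed throughout, but the 1 h arrays lay on either side of those of 2 h. In the larger batch the differences from 0 h were 1.14 at 1 h, with 1 array, and 0.85 at 2 h. Ednrb ended 2.91 ± 0.18 (SE) above 0 h, or 7.49-fold (limma adjusted p = 3.6e-17). With LPS at 5 ng/ml it was 7.43 and 7.41 at 1 h, 8.33 and 8.05 at 2 h, 9.28 and 9.29 at 4 h, 9.30 and 9.42 at 8 h, and 9.36 and 9.49 at 24 h. At that dose it was nearly level from 4 h on, 2.56 ± 0.18 (SE) above 0 h at 24 h (limma adjusted p = 5.8e-17). With LPS at 50 ng/ml it was 7.63 and 7.57 at 1 h, 8.53 and 8.51 at 2 h, 9.05 and 9.21 at 4 h, 8.44 and 8.45 at 8 h, and 9.17 and 8.98 at 24 h. The largest difference there was 2.27 ± 0.18 (SE) at 4 h (limma adjusted p = 4.6e-14), and 8 h was a dip. Ednrb alone of the pair was called in each C57BL/6 course, where 9.11%, 14.3% and 15% of all genes were called at 0.5, 5 and 50 ng/ml. From 1 h to 24 h it gained 2.19, 2.01 and 1.48 at these doses, so the rise does not rest on the 0 h arrays. Without the arrays that stood apart these gains were 1.77, 1.94 and 1.51.

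The dose order of Ednrb turned with time. At 2 h its means ran 50 above 5 above 0.5 ng/ml, and at 8 and 24 h they ran 0.5 above 5 above 50, with the arrays of 0.5 and 5 ng/ml overlapping at both of these times. Ednrb at 50 minus 0.5 ng/ml was 0.80 at 2 h, -0.99 ± 0.18 (SE) at 8 h and -0.69 at 24 h (limma adjusted p = 5.1e-06 over the 5 times), with no overlap of arrays at these times. The largest difference was just under the minimum of 1, so Ednrb was not called. It passed that minimum with the arrays centred on the same median (-1.05) and in the larger batch (-1.01 at 24 h). Between 50 and 5 ng/ml it was -0.92 ± 0.18 (SE) at 8 h (limma adjusted p = 0.018, not called). Between 5 and 0.5 ng/ml the largest difference was 0.48 at 2 h (limma adjusted p = 0.076), with a 95% interval of 0.11 to 0.84. Edn1 kept 50 above 0.5 ng/ml at 8 h, 10.76 and 10.69 against 6.88 and 7.52, at the time when Ednrb had 8.44 and 8.45 against 9.30 and 9.58.

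Ednrb was lower in BALB/c than in C57BL/6 with LPS at 5 ng/ml, by -0.91 at 4 h, -1.39 at 8 h and -1.94 ± 0.18 (SE) at 24 h, the last 3.84-fold (limma adjusted p = 2.5e-12). The 24 h arrays were 7.65 and 7.32 in BALB/c against 9.36 and 9.49 in C57BL/6, and without the array that stood apart the difference was -1.87. The change from 0 h also differed. At 24 h it was 1.04 in BALB/c and 2.56 in C57BL/6, a difference of -1.52 ± 0.25 (SE) (limma adjusted p = 3.8e-07). This difference uses the C57BL/6 0 h arrays that held LPS-induced transcripts. From 1 to 24 h, which leaves them out, Ednrb changed by -0.08 in BALB/c and by 2.01 in C57BL/6, a contrast that was not tested. At 0 h the strains differed by -0.42, with a 95% interval of -0.78 to -0.05, and this did not pass after adjustment (limma adjusted p = 0.17).

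Ednrb was lower with IFN-beta at 8 h, and with IFN-gamma it was higher until 4 h and lower at 24 h. With IFN-beta Ednrb was 6.32 and 6.74 at 1 h, 6.89 and 6.77 at 2 h, 6.13 and 6.20 at 4 h, 4.89 and 5.12 at 8 h, and 6.23 and 6.36 at 24 h. The 8 h arrays lay below all others of the series, -1.44 ± 0.18 (SE) from 0 h or 2.72-fold lower (limma adjusted p = 1.6e-09), and the level was back within 0.15 of 0 h at 24 h. With IFN-gamma it was 7.56 and 7.48 at 1 h, 7.59 and 7.45 at 2 h, 7.83 and 7.82 at 4 h, 6.25 and 6.04 at 8 h, and 5.50 and 5.86 at 24 h. The 4 h difference was 1.38 ± 0.18 (SE), the 24 h difference -0.77 (limma adjusted p = 3.2e-13). IFN-beta minus IFN-gamma was -1.66 ± 0.18 (SE) at 4 h and 0.62 at 24 h (limma adjusted p = 2.7e-11). At 4 h Edn1 was thus higher and Ednrb lower with IFN-beta than with IFN-gamma. Over the 32 groups Ednrb spanned 4.76 log2, or 27.2-fold, from 5.01 with IFN-beta at 8 h to 9.77 with LPS at 0.5 ng/ml at 24 h in C57BL/6, and 16 of 31 neighbouring pairs overlapped.

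**Figure D4:**
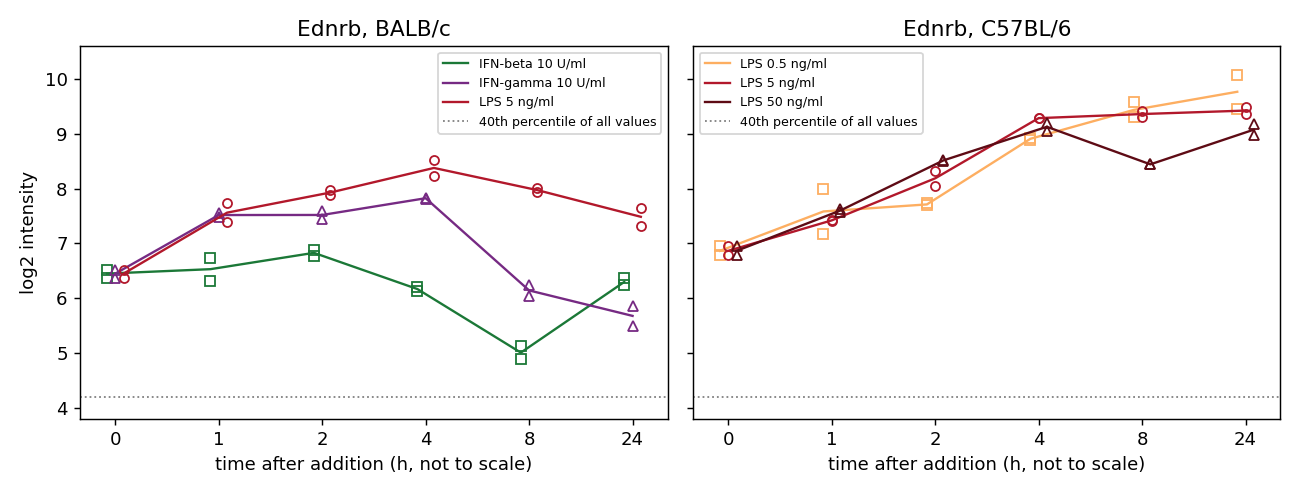
Ednrb log2 intensity (y axis) by time in h (x axis) in each of the 6 courses. Points are single arrays and lines join group means of 2 arrays. IFN-beta has its lowest point at 8 h (4.89 and 5.12), IFN-gamma is above 0 h until 4 h and below it at 24 h, and all LPS courses lie above their 0 h arrays.

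Ece1, whose enzyme cuts the inactive intermediate to endothelin-1, was nearly level and was called in none of the 13 comparisons, with an unadjusted p under 0.05 in 8 of them and an adjusted p under 0.05 in 4 (limma). Over all 18820 genes, 181 to 8979 per comparison had an adjusted p under 0.05 (limma). The group means of Ece1 spanned 1.43 log2, or 2.70-fold, and 27 of 31 neighbouring pairs overlapped. The clearest difference came late with LPS in BALB/c, where Ece1 was 8.96 and 8.48 at 24 h, against 9.71 and 9.68 at 0 h and between 9.37 and 9.76 on every array from 1 to 8 h. That difference was -0.98 ± 0.14 (SE), or 1.97-fold (limma adjusted p = 5e-07), just under the minimum. The second 24 h array is of the smaller batch, in which Ece1 ran -0.31 ± 0.04 (SE) from the larger one. With the batch as a covariate the difference was -0.82, in the larger batch alone -0.74 (limma adjusted p = 1e-05), and without the first 24 h array -1.22, where Ece1 was called (limma adjusted p = 5.9e-07). In C57BL/6 the 24 h differences were -0.37 at 0.5 ng/ml (limma adjusted p = 0.017), -0.37 at 5 ng/ml (limma adjusted p = 0.02) and -0.27 at 50 ng/ml (limma adjusted p = 0.16). The 24 h arrays lay at 9.21 and 9.00 with 0.5 ng/ml, 9.26 and 8.95 with 5 ng/ml and 9.17 and 9.23 with 50 ng/ml, all below the 0 h arrays at 9.47 and 9.48.

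IFN-gamma had Ece1 at 10.07 and 10.24 at 8 h, 0.46 ± 0.14 (SE) above 0 h (limma adjusted p = 0.022). IFN-beta had it at 9.35 and 9.29 at 4 h, -0.38 from 0 h (limma adjusted p = 0.059), and with the batch as a covariate -0.07. IFN-beta minus IFN-gamma was -0.39 at 8 h (limma adjusted p = 0.058). No dose comparison passed, with largest differences of 0.17, 0.13 and 0.24 for 50 against 0.5, 50 against 5 and 5 against 0.5 ng/ml (limma adjusted p = 0.79, 0.96 and 0.64). Their 95% intervals were -0.12 to 0.46, -0.16 to 0.42 and -0.05 to 0.53. Between strains with LPS at 5 ng/ml the largest difference was -0.39 at 24 h (limma adjusted p = 0.12), in the response to LPS -0.61 (limma adjusted p = 0.12), and at 0 h 0.22 (limma adjusted p = 0.45).

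Of 9 further genes of the endothelin system 7 were measured, namely the ligands Edn2 and Edn3, the proteases Furin and Ece2, and the endothelin-degrading or related peptidases Mme, Mmel1 and Kel. Ednra and Pcsk7 were not analysed here. By limma none of the 7 was called in any of the 13 comparisons, and of the 91 tests 36 had an unadjusted and 24 an adjusted p under 0.05. The share of all genes called ran from 0.228% to 17.2% over these comparisons. Without the minimum change, 181 to 8979 of 18820 genes per comparison had an adjusted p under 0.05. The group means of Edn2 stayed between 3.56 and 4.23 and those of Edn3 between 4.75 and 5.48, so neither sister ligand showed a course like that of Edn1. Furin, a protease able to cut the precursor, came closest to a call. It was 0.96 above 0 h at 8 h with LPS at 50 ng/ml (limma adjusted p = 5.4e-10) and 0.87 at 8 h with 5 ng/ml (limma adjusted p = 2.4e-08) in C57BL/6. In BALB/c with 5 ng/ml its largest difference was -0.46 at 24 h (limma adjusted p = 1.4e-04), and the strains differed by -0.97 at 8 h (limma adjusted p = 9.5e-10). Ece2, a second converting enzyme, was 0.84 higher at 8 h with LPS in BALB/c (limma adjusted p = 1.3e-10). The median largest difference of the 7 genes was -0.14 in the BALB/c LPS course and 0.27 at 50 ng/ml, beside -0.19 and -0.17 over all genes.

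Of 22 genes that act downstream of endothelin receptors, 21 were measured. With LPS at 5 ng/ml in BALB/c 2 of the 21 rose and 6 fell, where 7.44% of all genes rose and 9.72% fell. The leading falls were those of Arrb1, a beta-arrestin (-2.25 at 8 h), Plcb2, a phospholipase C (-1.91 at 8 h), Rgs2, a regulator that damps Gq signalling (-1.80 at 24 h), and Itpr3, a calcium channel of internal stores (-1.62 at 8 h). In C57BL/6 1 rose and 3 fell at 0.5 ng/ml (4.02% and 5.09% of all genes), 1 rose and 6 fell at 5 ng/ml (5.88% and 8.41%), and 2 rose and 6 fell at 50 ng/ml (6.26% and 8.73%). Counted from 1 h, 2 rose and 1 fell at 0.5 ng/ml (4.35% and 6.07% of all genes), 2 rose and 5 fell at 5 ng/ml (6.29% and 8.6%), and 1 rose and 5 fell at 50 ng/ml (5.95% and 8.64%). Arrb1 also differed by dose, -1.77 at 8 h for 50 against 0.5 ng/ml (limma adjusted p = 6.4e-15), where 1.71% of all genes were called lower. IFN-beta raised 2, Prkce (1.66 at 8 h) and Rgs2 (1.14 at 4 h), and lowered Plcb4 (-1.27 at 8 h), and IFN-gamma lowered 2, Rgs2 (-1.14 at 2 h) and Plcb4 (-1.08 at 24 h). Over all genes 4.05% rose and 3.87% fell with IFN-beta, and 3.1% rose and 2.27% fell with IFN-gamma. The list's median largest difference was -0.51 in the BALB/c LPS course and -0.23 at 50 ng/ml, beside -0.19 and -0.17 over all genes.

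Of 15 factors known to act on Edn1 transcription in other cells 13 were measured. With LPS at 5 ng/ml in BALB/c 3 of the 13 rose and 4 fell, beside 7.44% and 9.72% of all genes. Junb, an AP-1 subunit, rose by 2.50 at 1 h (limma adjusted p = 1.5e-17). Smad3, a TGF-beta signal carrier, had a difference of -2.22 at 8 h, and the AP-1 subunits Fos and Jun had -2.08 and -1.86 at 4 h. In C57BL/6 2 rose and 4 fell at 0.5 ng/ml, 1 rose and 4 fell at 5 ng/ml, and 1 rose and 5 fell at 50 ng/ml, beside 4.02% to 6.26% higher and 5.09% to 8.73% lower over all genes. Counted from 1 h, 1 rose and 3 fell at 0.5 ng/ml, none rose and 5 fell at 5 ng/ml, and none rose and 6 fell at 50 ng/ml, beside 4.35% to 6.29% higher and 6.07% to 8.64% lower over all genes. That baseline had already had LPS for 1 h, so a fall from it is not a fall from untreated cells. Between 50 and 0.5 ng/ml 3 were called, where 2.01% of all genes were called higher, all 3 being higher at 50 ng/ml and at 1 h, Fos by 1.82, Junb by 1.44 and Klf2, a repressor of Edn1 in endothelium, by 1.34. Both groups of that time had replicates that stood apart, and without those arrays the differences were 2.08, 1.42 and 1.61, with 1 array per group. IFN-beta raised 1, Fos (1.68 at 8 h), and lowered 1, Smad3 (-1.83 at 4 h), and IFN-gamma lowered both of these, with differences of -1.61 at 2 h and -1.74 at 4 h. The shares of all genes were 4.05% higher and 3.87% lower with IFN-beta, and 2.27% lower with IFN-gamma. The list's median largest difference was -0.40 in the BALB/c LPS course, beside -0.19 over all genes.

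Of 18 other vasoactive mediators and their receptors 17 were measured. With LPS at 5 ng/ml in BALB/c 6 of the 17 rose and none fell, beside 7.44% and 9.72% of all genes, led by Nos2 (8.65 at 24 h), Ptgs2 (7.67 at 8 h), Thbs1, the adhesive glycoprotein thrombospondin (4.37 at 24 h), and Vegfa, the vascular growth factor (2.42 at 24 h). In C57BL/6, from the 0 h arrays described above, 2 rose and 2 fell at 0.5 ng/ml, 3 rose and 2 fell at 5 ng/ml, and 3 rose and 1 fell at 50 ng/ml, beside 4.02% to 6.26% higher and 5.09% to 8.73% lower over all genes. Counted from 1 h, 3 rose and none fell at 0.5 ng/ml, and 4 rose and 1 fell at each of 5 and 50 ng/ml. From that baseline 4.35% to 6.29% of all genes were higher and 6.07% to 8.64% lower. The direction of Nos2 depended on the baseline. From 0 h it was among those that fell at every dose (-6.44, -6.30 and -6.10 at 2 h with 0.5, 5 and 50 ng/ml), and from 1 h among those that rose at every dose. Nos2 stood at 4.19 and 4.01 at 2 h with 0.5 ng/ml, 4.13 and 4.33 with 5 ng/ml and 4.47 and 4.41 with 50 ng/ml, and at 8 h at 10.51 and 10.78, 12.16 and 12.20, and 12.37 and 12.51 in the same order of doses. Each interferon raised 4 and lowered none, the 4 being Nos2, Ptgs2, Vegfa and Thbs1, beside 4.05% of all genes higher with IFN-beta and 3.1% with IFN-gamma. Ptgs2 was 4.48 lower at 8 h with IFN-beta than with IFN-gamma (a difference of -4.48, limma adjusted p = 8.1e-09). The list's median largest difference was 0.25 in the BALB/c LPS course, beside -0.19 over all genes.

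The genes whose group means followed Edn1 most closely over the 32 groups were ranked by Pearson's r among 13883 genes with a group mean above 4.19. Il27 was the nearest (r = 0.940, rho = 0.907), followed by Tnfsf15 (0.931 and 0.933), Lpar1 (0.929 and 0.913), Fzd1 (0.926 and 0.908), Il12b (0.918 and 0.882), Il6 (0.917 and 0.896), Tpbg (0.916 and 0.877) and Bcl2a1c (0.911 and 0.907). Bcl2a1c has near-identical paralogs and its probe set may read them too. Il27 encodes a cytokine subunit, Il12b the shared p40 chain of interleukins, and Il6 an inflammatory cytokine. Lpar1 encodes a lysophosphatidic acid receptor and Fzd1 a Wnt receptor. In BALB/c at 8 h of LPS Il27 averaged 11.22 against 5.29 at 0 h, and Il6 averaged 11.66 against 3.75. In the C57BL/6 0 h arrays these genes stood above their BALB/c 0 h level too, Il27 at 8.15 and Il6 at 7.76. Ednrb ranked 533 of 13883 with r = 0.681, and Ece1 ranked 8346 with r = -0.212.

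Over the 22 LPS and 0 h groups alone, the nearest genes were Il27 (r = 0.943), Sav1 (0.934), Mmp25 (0.927), Tnfsf15 (0.924) and Cd69 (0.921), and Ednrb ranked 1217 with r = 0.594. Il27 and Tnfsf15 were in both sets of nearest genes. These coefficients describe group means that share arrays, batches and 0 h groups, and they carry no test.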

How the data were processed

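Each deposited value is a linear intensity of 1 probe set, which the authors normalised by a method not given in the sources used here, and the submitters' processing notes name Affymetrix Expression Console 1.1. Intensities ran from 2.49 to 17782 with array medians of 25.6 to 29.0. Precision is limited by 2 arrays per group. The log2 of this deposited intensity was analysed without further normalisation or filter. Group medians differed from 0 h by -0.12 to 0.03 log2. Of 35556 probe sets 21218 carried 1 gene symbol and gave 18820 genes, the brightest probe set per gene being kept. The array's build is not stated, so the only coordinates given are those of the RefSeq promoter window.

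All 64 arrays were fitted as 32 group means in R 4.3.3 with limma 3.58.1, reading tables with data.table (version 1.17.8) (32 residual degrees of freedom). The F-test of limma took the 5 differences of a comparison together, and for the strains at 0 h its moderated test took the single one. Benjamini-Hochberg adjustment ran over all genes. Calls needed an adjusted p below 0.05 and, at 1 or more times, a log2 difference of at least 1 in size. The adjusted p tests all times of a comparison together. The members and the gene lists were chosen with earlier results of these data known. Named genes were the members, at most 4 called members per list and comparison by size, and the 8 or 5 genes nearest to Edn1. Furin and Ece2, the single endothelial and granulocyte markers, and single-array levels of Nos2 were named after their values were seen.

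The pipeline was tested on simulated data. Alternatives planned were array centring, quantile normalisation, a filter on dim genes, probe sets of a gene averaged, a fit restricted to the arrays compared, limma's trend and robust options, a replicate block, no minimum change, each array left out, the batch as a covariate, the larger batch alone, omission of arrays that stand apart, and differences from 1 h. Combinations of batch, omission and 1 h baseline were chosen after seeing the data. Promoter windows and gene symbols are from RefSeq, GRCm38.p6.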

Additional observations from a re-analysis of the deposited data

Results flagged for a closer look

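The change of Ednrb from 0 h to 24 h of LPS at 5 ng/ml differed between strains by -1.52 (BALB/c minus C57BL/6), a difference that passed its own test (limma F-test over the 5 times, adjusted p = 3.8e-07). From 1 to 24 h Ednrb changed by -0.08 in BALB/c and by 2.01 in C57BL/6, a contrast that was not tested. Edn1 moved in opposite directions from 0 h in the strains at the same dose. At 1 h the change was 2.12 in BALB/c and -3.49 in C57BL/6, and at 2 h it was 3.08 in BALB/c and -1.19 in C57BL/6, with both arrays on the same side in each strain. This difference in Edn1 was not tested, since Edn1 was chosen on its LPS values. The C57BL/6 changes of both genes from 0 h use the arrays in which Nos2 stood at 10.54. From 1 to 2 h, which leaves those arrays out, Edn1 rose in both strains, by 0.96 in BALB/c and by 2.30 in C57BL/6.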

How the results depend on the processing

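The replicate block changed no call, and Edn1 with IFN-beta stayed at 1.99 (limma adjusted p = 1.1e-05 with the block). Replicate numbers do not pair the wells, since over 496 pairs of groups the correlation of same-numbered deviations had a median of 0.0046 and 46 were over 0.1. Differences recomputed under an alternative were read at the time of their largest difference in the main fit. Where that time stayed in the fit none changed direction, but some differences at other times did. Edn1 at 50 minus 0.5 ng/ml at 1 h was -0.25 in place of 0.96 without the arrays that stood apart. The 0.5 ng/ml array kept there was the one with more Nos2. Edn1 at 50 minus 5 ng/ml at 4 h was -0.06 in place of 0.16 in the larger batch. In that batch, which holds no IFN-beta array of 4 h, the largest difference of Edn1 between the interferons was -1.31 at 2 h (limma adjusted p = 0.0035), in place of 1.05 at 4 h. With arrays centred on the same median Ednrb between 50 and 0.5 ng/ml was -1.05 and passed, and the dose order of Edn1 means (50 above 5 above 0.5) held at 5 times in place of 4. In fits of only the arrays compared Edn1 lost its call with IFN-gamma (1.35, limma adjusted p = 0.12) and between the interferons (1.05, limma adjusted p = 0.09), and 13 genes in place of 43 were called between 50 and 5 ng/ml. With no minimum change the calls numbered 7037 in place of 1490 (IFN-beta), 5446 for 1010 (IFN-gamma), 8979 for 3231 (LPS, BALB/c), 7556 for 1715, 8728 for 2689 and 8733 for 2822 (C57BL/6 at 0.5, 5 and 50 ng/ml), 4766 for 700, 181 for 43 and 3320 for 407 (50 against 0.5, 50 against 5 and 5 against 0.5 ng/ml), 3436 for 746 (IFN-beta against IFN-gamma), 5870 for 1041, 2943 for 880 and 1802 for 445 (strains with LPS, strain response and strains at 0 h). Without that minimum Ece1 passed with IFN-gamma (0.46), with LPS in BALB/c (-0.98) and in C57BL/6 at 0.5 and 5 ng/ml (-0.37 each), and Ednrb passed at 50 against 0.5 ng/ml (-0.99) and 50 against 5 ng/ml (-0.92). In the larger batch 977 genes were called with IFN-beta and 72 between 50 and 5 ng/ml, Ednrb between 50 and 0.5 ng/ml passed on its 24 h difference of -1.01 (limma adjusted p = 4.3e-08, with -0.99 at 8 h), and the dose order held at 3 times. Counted from 1 h, Ednrb with LPS in BALB/c was 0.82 and not called, and 0.71 with the batch as a covariate and without the arrays that stood apart, an alternative chosen after seeing the data.

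With each array left out in turn, calls between 50 and 5 ng/ml ran from 29 to 147 (147 without the second array of 50 ng/ml at 1 h, 121 without the first of 5 ng/ml at 24 h). The dose order held at 3 to 5 times (3 without the second array of 50 ng/ml at 4 h, 5 without the second of 5 ng/ml or the first of 0.5 ng/ml at 1 h). Ednrb between 50 and 0.5 ng/ml ran from -1.13 to -0.86 and passed without the first 0.5 ng/ml array at 8 h or the second at 24 h. Ece1 with LPS in BALB/c ran from -1.22 to -0.74 and passed without the first 24 h array, and Edn1 between the interferons from 0.84 to 1.26. The causes of these changes were not tested.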
